A study of Mus musculus with 4 samples.

Results

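The enzymes described here make foreign and endogenous compounds water-soluble or split their ester bonds. They comprise every gene whose symbol on the array starts with Gst followed by a letter, Mgst, Ugt1, Ugt2, Sult, or Ces followed by a number. A probe set listed with several genes was kept as a unit of its own and is called shared. By this rule 51 of 12858 genes or shared units were members, carried by 66 of 22626 probe sets. They were 22 glutathione transferases (Gst and Mgst), 1 shared Ugt1a unit, 7 Ugt2 units, 11 sulfotransferases (Sult) and 10 carboxylesterases (Ces). Where a gene had several probe sets, the one with the highest mean signal stood for it, and 37 members had a mean scaled signal of at least 100 and are called measured. The rule reads symbols and uses no measured value, although these families were picked for description with earlier results of these data known.

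The samples were intestinal mucosa of male mice aged 10 weeks from the inbred strains A/J and C57BL/6J. Both strains were kept for 2 weeks on a diet either low or high in fat, so that strain and diet were crossed in 4 groups, each named here by its strain and its diet. Each group had 6 mice, and RNA pooled from 2 of them with an average body weight was hybridised to 1 Affymetrix 430A array. There were no replicate arrays, no spread within a group could be measured, and which part of the intestine was taken is not given in the labels.

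Phase II enzymes attach a charged group to a lipophilic compound. Glutathione transferases add glutathione to electrophiles, UDP-glucuronosyltransferases add glucuronic acid to alcohols, phenols and acids such as bilirubin, steroids and bile acids, and sulfotransferases add sulfate. Carboxylesterases of the endoplasmic reticulum hydrolyse drug esters and also acylglycerols and cholesterol esters. The enterocyte is the first cell to meet an ingested compound, and the conjugates it makes leave through ABC transporters.

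Across the 37 measured members most signals differed by less than 1.5-fold with diet. At least 1.5-fold higher on the high-fat array were 4 members in A/J (10.8%, against 4.92% of all measured units). In C57BL/6J there were 9 (24.3%, against 5.12%), most of them under 2-fold or close to it. At least 1.5-fold lower were 2 in A/J (5.41%, against 4.67%) and 0 in C57BL/6J (against 4.69%). Ces1f and Ugt2b5 were at least 2-fold higher on the high-fat array of both strains, and Ces2a was 1.84-fold higher in A/J and 2.16-fold higher in C57BL/6J. Between strains, the members at least 2-fold apart on either diet were all higher in A/J, and Ugt2b38 had the largest ratio, at least 12.0-fold on the low-fat diet.

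The Ugt2 and Ces genes lie in families of neighbouring, similar genes. In the RefSeq annotation, Ugt2b34, Ugt2b5, Ugt2a3 and Ugt2b38 lie in 1 uninterrupted row of 13 genes of the rule that runs on to Sult1b1 and Sult1d1. Ces2a, Ces2e, Ces2g and Ces4a lie in a row of 10, Ces1d and Ces1f in a separate row of 9, and Gstm1 to Gstm7 in a row of 7. The 250 bases before the annotated start of 4 of these genes are shown because Ugt2b5 and Ugt2b38, from 1 row, differed by strain, while Ces2a and Ces2e, also from 1 row, had different diet ratios. The sequences are from RefSeq, build GRCm38.p6, read along the strand of the gene and ending at the base before the start, and they are reference sequence of C57BL/6J. The first pair lies on the minus strand at chr5:87140341-87140590 and chr5:87424204-87424453, and the second on the plus strand at chr8:104733753-104734002 and chr8:104926010-104926259. Capitals mark the longest run of identical letters within each pair.
Ugt2b5: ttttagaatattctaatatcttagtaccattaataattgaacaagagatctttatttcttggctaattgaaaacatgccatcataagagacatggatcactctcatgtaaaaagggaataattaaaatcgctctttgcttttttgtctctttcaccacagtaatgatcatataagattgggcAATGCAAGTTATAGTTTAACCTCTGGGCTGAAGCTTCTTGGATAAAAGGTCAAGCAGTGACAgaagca
Ugt2b38: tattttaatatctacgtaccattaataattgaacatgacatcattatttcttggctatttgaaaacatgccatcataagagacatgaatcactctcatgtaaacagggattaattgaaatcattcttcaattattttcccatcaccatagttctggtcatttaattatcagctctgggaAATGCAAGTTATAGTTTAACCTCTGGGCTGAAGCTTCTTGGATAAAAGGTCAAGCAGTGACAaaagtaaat
Ces2a: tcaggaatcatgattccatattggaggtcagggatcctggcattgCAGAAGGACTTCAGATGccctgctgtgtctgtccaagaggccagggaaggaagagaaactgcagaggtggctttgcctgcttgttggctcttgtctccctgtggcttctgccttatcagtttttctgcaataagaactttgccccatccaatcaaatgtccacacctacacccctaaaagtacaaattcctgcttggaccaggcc
Ces2e: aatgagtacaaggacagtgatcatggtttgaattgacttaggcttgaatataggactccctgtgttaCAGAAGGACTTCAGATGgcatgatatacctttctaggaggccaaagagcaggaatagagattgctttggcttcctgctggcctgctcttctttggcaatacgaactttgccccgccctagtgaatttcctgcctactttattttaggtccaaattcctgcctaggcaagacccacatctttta

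The run shared by Ugt2b5 and Ugt2b38 was 62 bases long, and the run shared by Ces2a and Ces2e was 17 bases long. Both strands of the 250 bases before each start were searched for 4 motifs, which were chosen after the sequences and values were seen. Promoters were found in the table for 52 of the 60 member symbols, 62 promoters in all. AGGTCA, the half-site bound by many nuclear receptors, was present in 10 of the 62 promoters (16.1%) and in 14.0% of the 32851 promoters in the table. It lay 22 bases before the start of Ugt2b5 and 25 bases before that of Ugt2b38, within the shared run, and 226 bases before the start of Ces2a. The direct repeat of this half-site with 1 base between the copies was in 0 of the 62 promoters and in 0.0335% of all. TGACNNNGC, the core of the antioxidant response element, was in 6.45% of the member promoters and 10.2% of all, and the HNF1 half-site GTTAAT in 14.5% and 6.43%. AGGTCA is part of the direct repeat, and a match is a description of the letters only.

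Signals are given after each array was scaled to the same trimmed mean, always with the A/J pair first and the C57BL/6J pair second, and low-fat before high-fat within each pair. Signals under 100, the floor, were set to 100 for ratios, so that where 1 signal of a pair lay under it only a lower bound of the ratio is known, marked by the words at least. The C57BL/6J low-fat array stood apart in some readings. Its 18S ribosomal RNA signal at the 5' end was 11010 against 84.4 to 1675 on the other arrays, and the summed signal of 9 T cell markers was 12976 against 3079 to 7181. The A/J high-fat array had a summed signal of 2582 over 10 exocrine pancreas markers against 88965 to 141554, and of 1213 over 6 stomach markers against 1937 to 9535. The 10 enterocyte markers found, of 12 listed, summed to between 139791 and 146826 on every array. The 5 proximal small intestine markers found, of 6 listed, were at or above the floor on every array. They summed to 33146, 26038, 28897 and 32262, higher in A/J on low fat and lower in A/J on high fat. Of the 3 distal small intestine markers, Fabp6 and Slc10a2 were below the floor on all 4 arrays. The third distal marker, Cubn, passed the limma test as higher in A/J. The summed signals of the distal markers were 3934, 2652, 910 and 892. Of the 4 colon markers found, Car1 and Hoxb13 were below the floor on all 4 arrays, and the list summed to 2614, 3693, 1799 and 2371, higher in A/J on both diets. The part of these regional markers in the strain ratios of the enzymes was not tested. In pooled tissue, fewer cells of a type and less RNA per cell cannot be told apart, and a strain difference in the sequence under a probe cannot be told apart from a difference in transcript level.

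**Figure D1:**
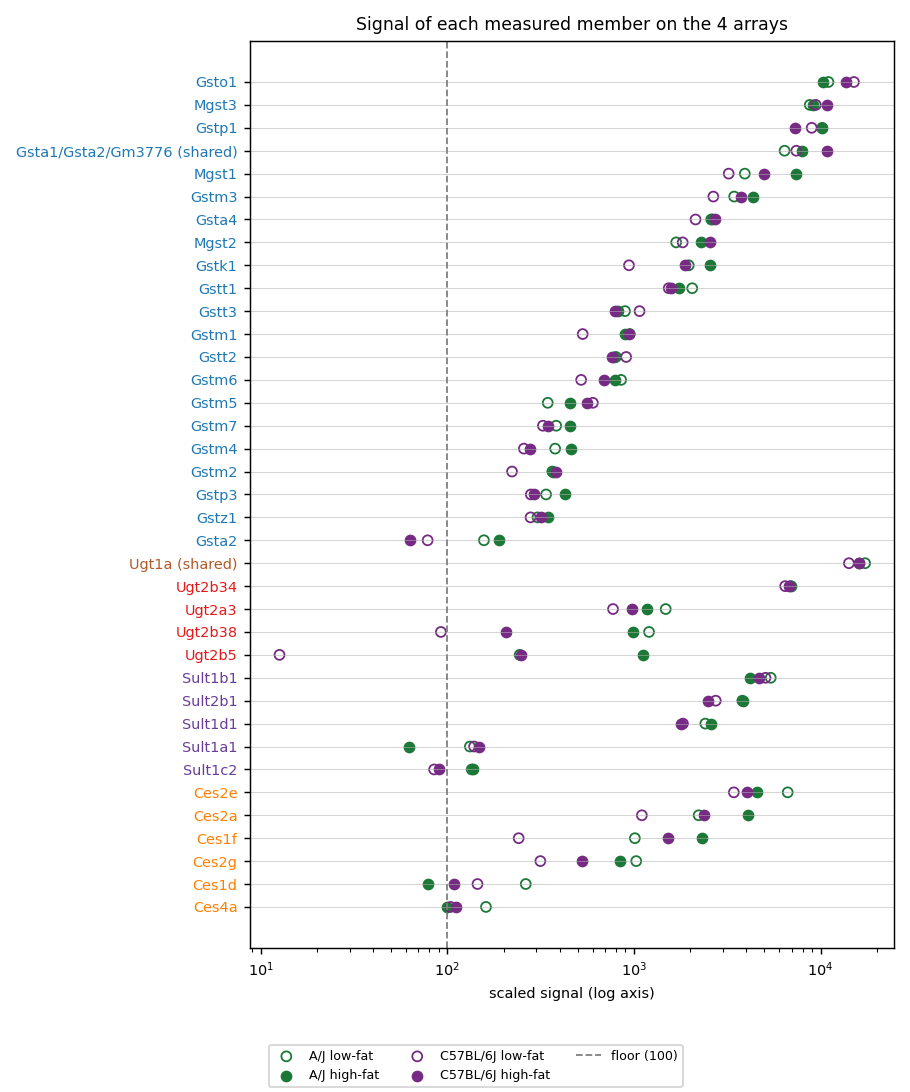
Scaled signal (log axis) of each of the 37 measured members on the 4 arrays, by family and then by mean signal; open circles are low-fat and filled circles high-fat, green A/J and purple C57BL/6J, and the dashed line is the floor of 100. The C57BL/6J low-fat circle is the leftmost for 22 members and lies under the floor for Ugt2b5, Ugt2b38, Gsta2 and Sult1c2. The Ugt1a, Ugt2b34 and Sult1b1 circles lie close together. Each row shows 1 probe set, so levels are not comparable between rows.

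Diet was examined by the ratio of high-fat to low-fat within each strain, with no test because each side was 1 array, and by an additive limma fit over all 4 arrays with Benjamini-Hochberg adjustment over 8334 units. In A/J, 2 of the 37 measured members were at least 2-fold higher on the high-fat diet, against 0.816% of all measured units, and 1 was at least 2-fold lower, against 1.07%. In C57BL/6J, 4 were at least 2-fold higher, against 1.01%, and 0 lower, against 0.696%. In the limma fit, 2 members rose with fat, against 0.36% of all units, and 0 fell, against 0.156%. At an unadjusted p under 0.05 limma gave 6 members higher and 1 lower, against 4.78% and 4.46% of all units. At least 1.5-fold higher in both strains were 4 members (10.8%), against 1.16% of all measured units, and these were Ces1f, Ces2a, Ugt2b5 and Mgst1. Of the 37 diet ratios, 13 had opposite signs in the strains (35.1%), against 44.8% of all units. In A/J the members' log2 ratio had a median of 0.02, where that of all measured units was 0.01, and in C57BL/6J medians were 0.17 and -0.01. Without scaling between arrays the members' medians were -0.03 for A/J and 0.02 for C57BL/6J, and those of all units -0.03 and -0.15. The 2 diet ratios share no array.

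**Figure D2:**
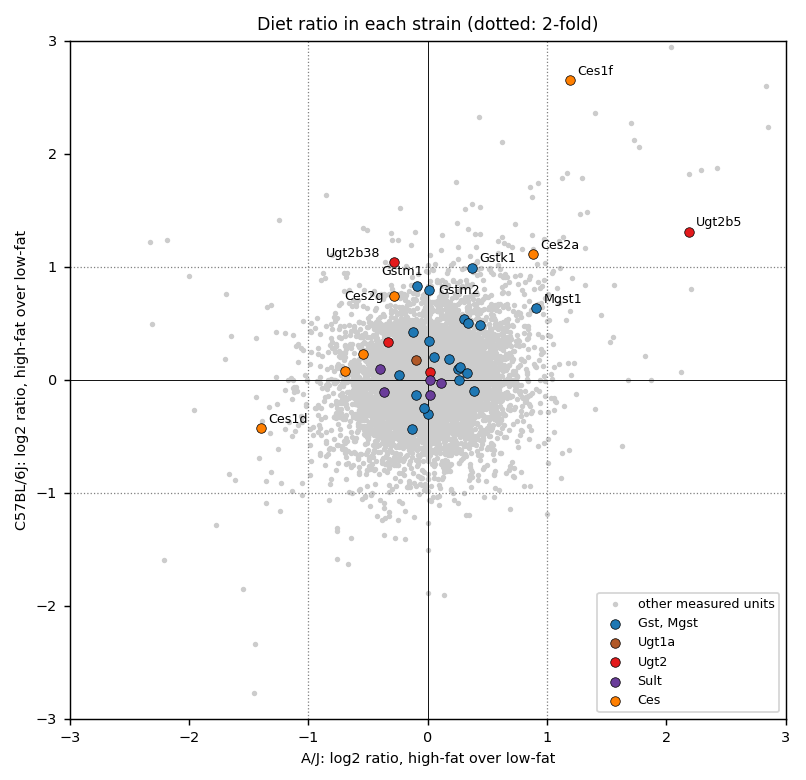
Log2 ratio of high-fat over low-fat for A/J (x axis) and for C57BL/6J (y axis), with the 37 measured members coloured by family and the other measured units in grey, of which 22 lie outside the axes; dotted lines mark 2-fold. Ces1f and Ugt2b5 lie beyond 2-fold in both strains. Ces2a, beyond 2-fold in C57BL/6J only, and Mgst1, under 2-fold in both strains, also lie right of and above 0. Ugt2b38 and Ces2g lie left of 0 on the A/J axis and above 0 on the other. Bounds are drawn as if exact.

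Strain was examined in the same way, as A/J over C57BL/6J on each diet. On the low-fat diet the A/J signal of 6 members was 2-fold or more above that of C57BL/6J, against 3.02% of all measured units, and 0 were lower, against 2.76%. On the high-fat diet 2 were at least 2-fold higher, against 2.03%, and 0 lower, against 2.52%. In the limma fit, 6 members were higher in A/J, against 3.68% of all units, and 0 lower, against 3.55%, with 13 higher and 2 lower at an unadjusted p under 0.05, against 11.9% and 9.62%. The members' median log2 ratio was 0.40 on the low-fat diet and 0.18 on the high-fat diet, and that of all units 0.02 and 0.04. Without scaling between arrays, the medians of all units moved to 0.19 and 0.31, and those of the members to 0.58 and 0.46. The C57BL/6J low-fat array held the lowest of the 4 signals for 22 of 37 members (59.5%), against 27.7% of all measured units, and for 18 members (48.6%) against 23.5% without scaling. The 18S and T cell signals given above were highest on that same array, and their part in these counts was not tested. The high-fat strain ratio does not use that array, and it is given beside most of the members named below.

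**Figure D3:**
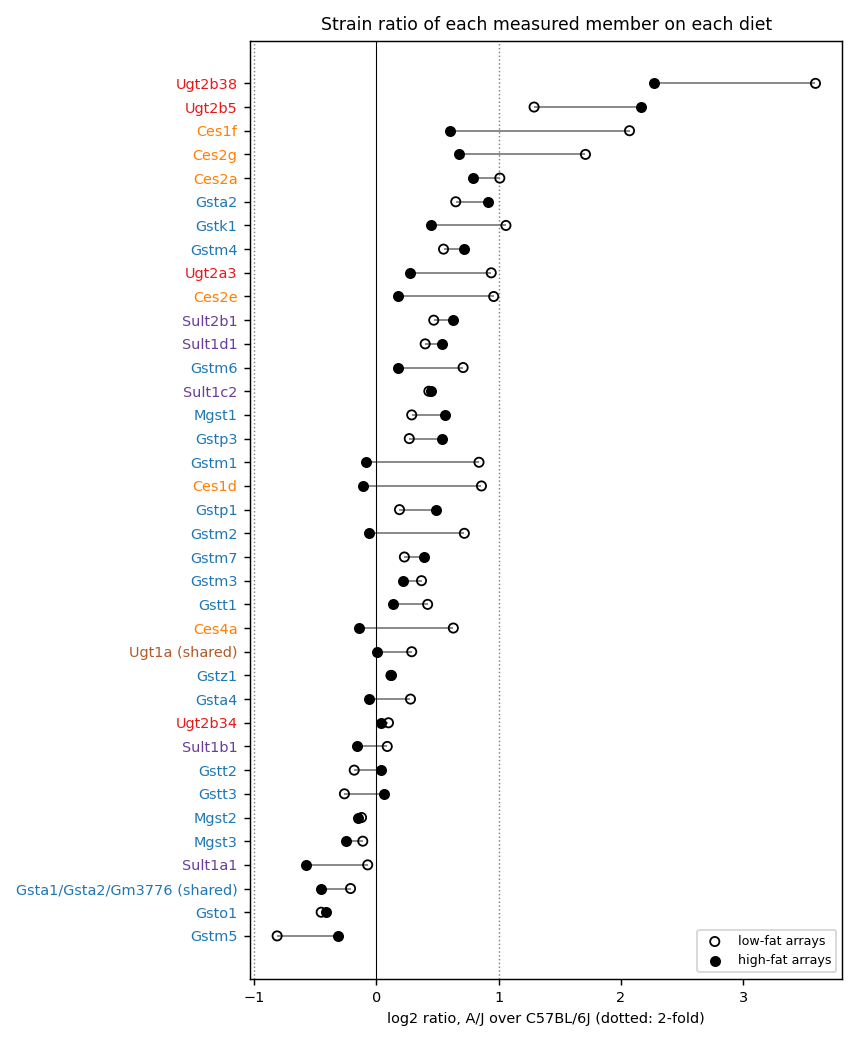
Log2 ratio of A/J over C57BL/6J for each measured member on the low-fat arrays (open) and the high-fat arrays (filled), sorted by the mean; dotted lines mark 2-fold, and bounds are drawn as if exact. Ugt2b38 and Ugt2b5 lie beyond 2-fold on both diets, Ces1f, Ces2g, Ces2a and Gstk1 on the low-fat diet, and no member lies beyond 2-fold on the C57BL/6J side.

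Among the carboxylesterases, 6 of 10 were measured. Ces1f, which hydrolyses neutral lipids in the endoplasmic reticulum, had signals of 1011, 2303, 241 and 1520. Both high-fat signals were above both low-fat signals, and the C57BL/6J low-fat signal was well below the other 3. The diet ratio was 2.28-fold in A/J and 6.30-fold in C57BL/6J, and the limma log2 change was 1.92 (SE 0.293, adjusted p = 0.0143). A/J exceeded C57BL/6J 4.19-fold on low fat and 1.51-fold on high fat, a limma log2 change of 1.33 (SE 0.293, adjusted p = 0.0188). Without the C57BL/6J low-fat array, a fit of strain alone, which sets both A/J arrays against the C57BL/6J high-fat array, gave a log2 strain difference of 0.01, and a fit of diet alone gave a log2 change of 0.89. Its only probe set is of the kind that can match several transcripts, and Ces1f is therefore uncertain against its similar neighbours. Over 14 alternative settings of the limma fit, among them leaving out each array in turn, the adjusted p ranged from 0.000138 to 1.0 for diet and from 0.00107 to 0.999 for strain, and the calls held in 4 and 5 of them.

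Ces1 enzymes are abundant in liver and fat tissue. The hepatocyte markers Alb, Fga, Fgb and Hp and the adipocyte marker Adipoq were below the floor on every array. Of the 7 liver markers found, 3 had a mean signal of at least 100, as did 2 of the 4 adipocyte markers found. The summed signal of the 7 liver markers found lay between 5431 and 6665, and that of the 4 adipocyte markers found between 348, on the C57BL/6J low-fat array, and 608, on A/J low-fat.

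Ces1d, a triacylglycerol hydrolase that takes part in lipoprotein assembly in liver, had signals of 263, 78.8, 145 and 108. It was highest on the A/J low-fat array and under the floor on A/J high-fat, the array on which the pancreas and stomach markers were also lowest, whose part in this ratio was not tested. The A/J diet ratio was at least 2.63-fold lower, that of C57BL/6J 1.35-fold lower, and the limma log2 change with diet was -0.91 (SE 0.242, adjusted p = 0.198), which did not pass the test. A/J was 1.81-fold higher on the low-fat diet, and on the high-fat diet at least 1.08-fold lower. The other probe sets of Ces1d lay under the floor on all arrays except for a signal of 103 on A/J low-fat.

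Ces2 enzymes hydrolyse esters with a small acyl group, among them prodrugs, and are abundant in the intestine. Ces2a had signals of 2221, 4097, 1102 and 2377, with the high-fat array above the low-fat array in both strains and A/J above C57BL/6J on both diets. The diet ratios were 1.84-fold and 2.16-fold higher, and the limma log2 change of 1.0 (SE 0.196, adjusted p = 0.0567) did not pass the test, though it passed in 3 of 15 alternative settings. The strain ratios were 2.02-fold on low fat and 1.72-fold on high fat, with a limma log2 change of 0.90 (SE 0.196, adjusted p = 0.0181). That strain call held in 7 of 15 alternative settings (adjusted p from 0.0012 to 0.81).

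Ces2g had signals of 1028, 845, 315 and 526, and the A/J signals lay above those of C57BL/6J on both diets. With diet the strains differed in direction, at 1.22-fold lower in A/J and 1.67-fold higher in C57BL/6J, and the limma diet term (0.23 log2, adjusted p = 0.877) did not pass. The strain ratios were 3.26-fold on low fat and 1.61-fold on high fat, with a limma log2 change of 1.20 (SE 0.247, adjusted p = 0.0134). The call held in 7 of 15 alternative settings (adjusted p from 0.00123 to 0.627). Ces2e had signals of 6664, 4567, 3429 and 4019. It was 1.46-fold lower with fat in A/J and 1.17-fold higher in C57BL/6J. A/J was 1.94-fold higher on low fat and 1.14-fold higher on high fat, and the strain term did not pass the limma test (0.57 log2, adjusted p = 0.166).

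All 6 measured carboxylesterases, Ces4a at signals of 100 to 161 among them, had an A/J signal 1.5-fold or more above C57BL/6J on the low-fat diet, as did 10.7% of all measured units. On the high-fat diet their median log2 strain ratio was 0.39, against 0.98 on low fat. For diet, the median log2 ratio was -0.41 within A/J and 0.48 within C57BL/6J.

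The shared Ugt1a probe set stands for the gene complex in which alternative first exons are spliced to common exons and which includes the bilirubin-conjugating enzyme. Its signals were 17321, 16143, 14181 and 15986, the C57BL/6J low-fat signal being the lowest. The high-fat signal was 1.07-fold lower in A/J and 1.13-fold higher in C57BL/6J, and A/J was 1.22-fold higher on low fat and 1.01-fold on high fat. The other Ugt1a probe sets gave larger low-fat strain ratios. Signals of 10113, 9749, 5626 and 7936 gave 1.80-fold, and signals of 6334, 8263, 4430 and 6419 gave 1.43-fold.

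Of the 7 Ugt2 units, 4 were measured. Ugt2b5, which glucuronidates steroids, had signals of 244, 1113, 12.6 and 248. The C57BL/6J low-fat signal was under the floor, the signals of A/J on low fat and C57BL/6J on high fat were alike, and A/J on high fat had the highest. The high-fat signal was 4.56-fold higher in A/J and at least 2.48-fold higher in C57BL/6J, with a limma log2 change of 1.75 (SE 0.234, adjusted p = 0.00605). A/J was at least 2.44-fold higher on low fat and 4.48-fold higher on high fat, with a limma log2 change of 1.73 (SE 0.234, adjusted p = 0.000934). These fitted changes and p-values rest on a signal set to the floor and are no bounds. The diet call held in 6 of 15 alternative settings (adjusted p from 5.56e-05 to 1.0), and the strain call in 8 of 15 (from 3.81e-06 to 0.751).

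Ugt2b38, from the same row of genes, had signals of 1204, 993, 92.3 and 206, with both A/J signals above both C57BL/6J signals. A/J was at least 12.0-fold higher on the low-fat diet and 4.83-fold higher on the high-fat diet. The limma log2 change, which rests on a signal set to the floor, was 2.93 (SE 0.277, adjusted p = 8.49e-05), and the call held in 9 of 15 alternative settings (adjusted p from 1.3e-07 to 0.479). With fat it was 1.21-fold lower in A/J and at least 2.06-fold higher in C57BL/6J, and the diet term did not pass the limma test (0.38 log2, adjusted p = 0.785). Ugt2b5 and Ugt2b38 thus shared the direction of the strain ratio on both diets, while their diet ratios in A/J had opposite signs.

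Ugt2a3, which lies between Ugt2b5 and Ugt2b38, had signals of 1479, 1179, 772 and 973. A/J was 1.92-fold higher on low fat and 1.21-fold higher on high fat. The high-fat signal was 1.25-fold lower in A/J and 1.26-fold higher in C57BL/6J. Ugt2b34 was nearly level at 6901, 6983, 6459 and 6779. Its ratios lay between 1.01-fold and 1.07-fold, and without scaling its diet ratios changed sign, to -0.03 in A/J and -0.08 in C57BL/6J on the log2 scale. The other Ugt2b34 probe set had signals of 8270, 6372, 4336 and 5180 and a larger low-fat strain ratio of 1.91-fold.

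Of the 11 sulfotransferases 5 were measured and 0 reached 2-fold in any comparison. Sult1b1, which sulfates phenols and thyroid hormones, had signals of 5404, 4183, 5066 and 4686. It was 1.29-fold lower with fat in A/J and 1.08-fold lower in C57BL/6J, and the strains were within 1.07-fold on low fat and 1.12-fold on high fat. Its high-fat strain ratio of -0.16 on the log2 scale turned to 0.12 without scaling. Sult2b1, which sulfates cholesterol and other hydroxysteroids, had signals of 3806, 3857, 2742 and 2491. It was level with diet, at 1.01-fold higher in A/J (lower without scaling, at -0.03 log2) and 1.10-fold lower in C57BL/6J. A/J was 1.39-fold higher on low fat and 1.55-fold higher on high fat.

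Sult1d1, which sulfates catecholamines, had signals of 2411, 2596, 1830 and 1787, with both A/J signals above both C57BL/6J signals. A/J was 1.32-fold higher on low fat and 1.45-fold higher on high fat. The high-fat signal was 1.08-fold higher in A/J and 1.02-fold lower in C57BL/6J. The other Sult1d1 probe set had signals of 1980, 1588, 1220 and 1115, lower with fat in both strains and higher in A/J on both diets. Sult1b1 and Sult1d1 are the next genes after the Ugt2 row, and their strain ratios were far smaller than those of Ugt2b5 and Ugt2b38. The other measured sulfotransferases, Sult1a1 and Sult1c2, had signals of 62.5 to 148, close to the floor.

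The glutathione transferases were the largest family, with 21 of 22 measured, and 1 of them, Gsta2, passed the limma test for strain. Their median log2 ratio was 0.18 with fat in each strain, 0.27 for A/J over C57BL/6J on low fat and 0.12 on high fat. The probe sets with the highest mean signals varied little. Gsto1, which can reduce dehydroascorbate, had signals of 11016, 10265, 15090 and 13677, and was 1.37-fold and 1.33-fold lower in A/J on the low-fat and high-fat diets. Gstp1, the pi-class enzyme, had signals of 10197, 10188, 8959 and 7268, with A/J 1.14-fold and 1.40-fold higher. Mgst3, a membrane enzyme of peroxide and leukotriene metabolism, had signals of 8752, 9078, 9425 and 10790, and its low-fat strain ratio of -0.11 log2 turned to 0.07 without scaling and 0.08 under quantile normalization.

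Gstk1, the kappa-class enzyme of mitochondria and peroxisomes, had signals of 1965, 2540, 940 and 1866. The C57BL/6J low-fat signal stood below the other 3. A/J was 2.09-fold higher on low fat and 1.36-fold higher on high fat, and the high-fat signal was 1.29-fold higher in A/J and 1.98-fold higher in C57BL/6J. Neither term passed the limma test, with log2 changes of 0.75 for strain (SE 0.214, adjusted p = 0.0591, passing in 3 of 15 alternative settings) and 0.68 for diet (SE 0.214, adjusted p = 0.289).

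Gsta2, an alpha-class enzyme, had signals of 157, 188, 78.4 and 63.1, with both C57BL/6J signals under the floor. The A/J signal exceeded the floor 1.57-fold on low fat and 1.88-fold on high fat, which are lower bounds of the strain ratio and the limma log2 change was 0.78 (SE 0.197, adjusted p = 0.0371). The call held in 6 of 15 alternative settings (adjusted p from 0.00773 to 1.0) and rests on signals set to the floor. The probe set shared by Gsta1, Gsta2 and Gm3776 had the other direction, with signals of 6412, 7921, 7409 and 10796 and A/J 1.16-fold and 1.36-fold lower. With fat that shared probe set was 1.24-fold higher in A/J and 1.46-fold higher in C57BL/6J.

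The remaining glutathione transferases named here were chosen after their values were seen. Mgst1, a membrane enzyme that also reduces lipid peroxides, had signals of 3926, 7360, 3217 and 4990. The high-fat signals were above the low-fat signals, by 1.87-fold in A/J and 1.55-fold in C57BL/6J, and the limma log2 change of 0.77 (SE 0.197, adjusted p = 0.18) did not pass. Mgst2 had signals of 1683, 2291, 1824 and 2546, with diet ratios of 1.36-fold and 1.40-fold.

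The 7 mu-class genes, Gstm1 to Gstm7, were all measured, and 0 passed the limma test for diet or strain. Their median log2 strain ratio was 0.55 on low fat and 0.18 on high fat, and their median log2 diet ratio 0.25 in A/J and 0.42 in C57BL/6J. Gstm1 had signals of 949, 892, 531 and 942, so that only the C57BL/6J low-fat signal stood apart, 1.79-fold below A/J on the same diet. Gstm2 had the same pattern at 365, 368, 222 and 383. Gstm5 ran the other way, with signals of 345, 453, 602 and 563 and a low-fat ratio of 1.75-fold lower in A/J. On high fat A/J was 1.06-fold lower for Gstm1, 1.04-fold lower for Gstm2 and 1.24-fold lower for Gstm5. The mu-class genes are near-identical in places, and signals of single members are uncertain to that extent.

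Of the members, 11 had more than 1 probe set. The probe sets of Gstm7 disagreed in direction on the low-fat diet, with A/J 1.18-fold higher by the brighter one and 1.37-fold lower by the dimmer one. For Gstm3, the probe set with signals of 3442, 4368, 2662 and 3759 gave a low-fat strain ratio of 1.29-fold. The dimmer one, with signals of 1188, 1200, 448 and 802, gave 2.65-fold. The 3 measured probe sets of Gstm1 gave between 1.64-fold and 1.79-fold.

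**Figure D4:**
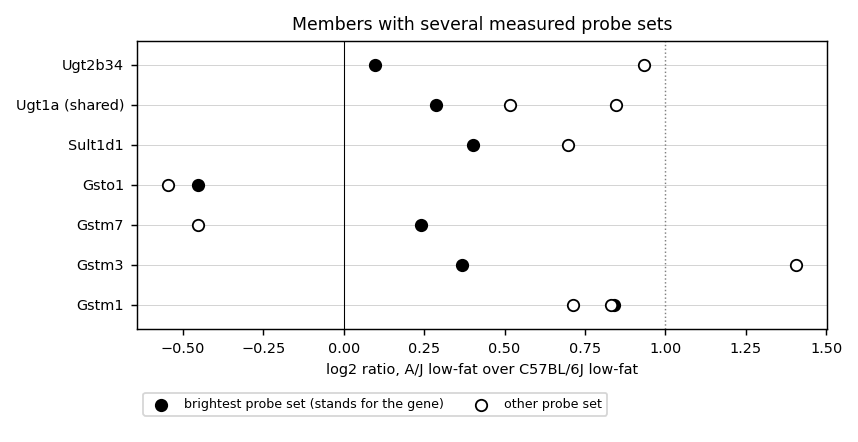
Log2 ratio of A/J low-fat over C57BL/6J low-fat for each measured probe set of the members that had several, with the brightest probe set filled and the others open. The probe sets of Gstm7 lie on opposite sides of 0, those of Gstm3 and Ugt2b34 lie far apart, and those of Gstm1 lie together; the dotted line marks 2-fold.

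At the other end, 30 of the 37 measured members were under 2-fold in all 4 comparisons, and 19 were under 1.5-fold in all 4. Among these 19 were the shared Ugt1a unit, Ugt2b34 and Sult1b1 by their brightest probe sets. The same counts were not made over all measured units, so they do not show that the members were steadier than other genes. In each single comparison and direction, 0.696% to 3.02% of all measured units reached 2-fold. Of the 14 members that were not measured, 11 were below the floor on every array.

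Partner genes of the same pathways were followed in 8 lists of 86 genes, of which 76 were found on the array and 63 were measured. In the limma fit 0 of the 63 passed for diet, where 8 (12.7%) had an unadjusted p under 0.05 against 9.24% of all units. For strain 9 were higher and 2 lower in A/J, against 3.68% and 3.55% of all units. An unadjusted limma p under 0.05 for strain was found for 23 (36.5%), against 21.5% of all units. The same shares of all units apply to the strain counts of the single lists below. Of 11 measured genes of glutathione synthesis and reduction, 1 was higher and 1 lower in A/J. Gclc, the catalytic subunit of the enzyme that limits glutathione synthesis, had signals of 978, 1098, 333 and 457 (limma log2 change 1.41, SE 0.198, adjusted p = 0.00118). Gpx2, the glutathione peroxidase of the gut epithelium, had signals of 888, 2096, 3534 and 3242 and was lower in A/J (log2 -1.31, SE 0.281, limma adjusted p = 0.0164).

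Of 5 measured genes of UDP-glucuronate supply 0 passed, and Ugdh, which makes UDP-glucuronate, had signals of 6258, 5696, 4302 and 5443. Gusb, the lysosomal enzyme that splits glucuronides, had signals of 230, 366, 192 and 440, and its log2 change with fat of 0.93 did not pass (limma adjusted p = 0.105). Of 7 measured genes of sulfate supply and sulfatases, the sulfate transporter Slc26a2 was lower in A/J, with signals of 829, 664, 1521 and 1374 (log2 -0.96, SE 0.195, limma adjusted p = 0.012). Papss2, which makes the sulfate donor, had signals of 10610, 10721, 13307 and 13471. Papss1, of the same list, was higher in A/J on both diets, with signals of 1333, 1218, 853 and 774. Its strain term did not pass (log2 0.65, limma adjusted p = 0.0691). Of the 7 genes, 4 were higher and 3 lower in A/J on low fat, and 2 higher and 5 lower on high fat.

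Of 6 measured efflux pumps, 3 were higher in A/J and 0 lower. Abcb1a, the drug pump P-glycoprotein, had signals of 1850, 2144, 731 and 1029 (log2 1.20, limma adjusted p = 0.00355). Abcc3, which carries glucuronides across the basolateral membrane, had 2702, 2745, 1357 and 1823 (log2 0.79, limma adjusted p = 0.0385), and Abcc6 had 720, 444, 186 and 230 (log2 1.45, limma adjusted p = 0.00418). Abcc2, the apical pump for conjugates, had signals of 372, 324, 345 and 583 and did not pass. Both C57BL/6J signals were below both A/J signals for Abcb1a, Abcc3 and Abcc6.

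Of 3 measured other conjugating enzymes, 1 was called. Tpmt, which methylates thiopurine drugs, had signals of 432, 542, 156 and 186 (log2 1.51, limma adjusted p = 0.000695). Of 10 measured other hydrolases, 3 were higher in A/J. They were the epoxide hydrolase Ephx1, with signals of 625, 589, 219 and 281 (log2 1.29, limma adjusted p = 0.00282), the butyrylcholinesterase Bche (log2 1.13, limma adjusted p = 0.00524) and the lactonase Pon3 (log2 0.88, limma adjusted p = 0.0195). Cel, a secreted lipase of the pancreas, had signals of 5679, 129, 5342 and 9860, and it is also on the pancreas marker list given above.

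Of 14 measured regulators, Ppara, the fatty acid receptor of the nuclear receptor family, was higher in A/J, with signals of 387, 541, 203 and 293 (log2 0.91, SE 0.193, limma adjusted p = 0.0159). Nr1i2, the xenobiotic receptor PXR, had signals of 527, 511, 781 and 848 and did not pass (log2 -0.65, limma adjusted p = 0.071). Nfe2l2, which encodes NRF2, had signals of 5155, 3924, 2749 and 3272. Of 7 measured NRF2 targets outside conjugation 0 passed for diet or strain, and Nqo1 had signals of 317, 465, 236 and 312.

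**Figure D5:**
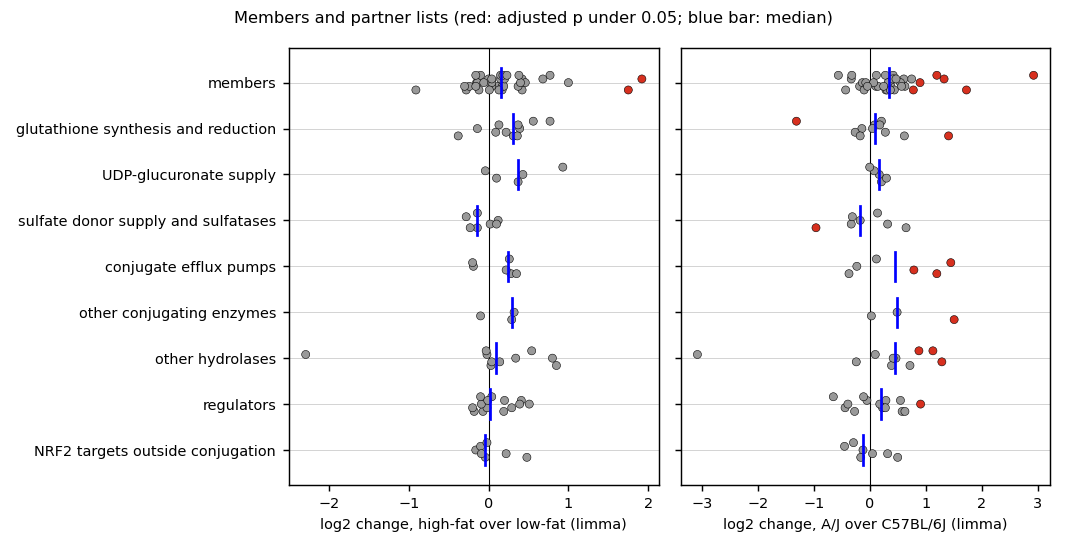
Limma log2 change for diet (left, high-fat over low-fat) and strain (right, A/J over C57BL/6J) of each measured member and of each measured gene of the 8 partner lists; red marks an adjusted p under 0.05 and the blue bar is the median of the row. Red points for diet appear only among the members, Ces1f and Ugt2b5, and for strain in the members and in 6 of the 8 lists, with Gpx2 and Slc26a2 on the side of C57BL/6J.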

How the data were processed

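Per the labels' protocols, biotinylated cRNA was hybridised to the Affymetrix Mouse Expression Array 430A, and the deposited values are a linear intensity per probe set from Microarray Suite 5.0 at default parameters. What the arrays were scaled to in that step is not known. Each array was multiplied by 2.72 or 2.80 (low-fat or high-fat array of A/J) and by 3.08 or 3.41 (likewise for C57BL/6J) to a mean of 500, trimmed by 2% at each end and taken without 64 control probe sets. Signals were floored at 100 and log2 was taken. The share of probe sets at or above 100 was 58.6% to 60.3% per array, and precision is limited by the number of arrays.

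Names came from the platform annotation, which lists 20380 probe sets with 1 gene, 691 with several and 1555 with none. All 60 member symbols matched the RefSeq table and 0 changed. Strain and diet were additive terms in limma 3.58.1 (R 4.3.3) with 1 residual degree of freedom, called at an adjusted p under 0.05. The error is the strain-by-diet difference among 4 pools, not a spread between replicates, so with so few arrays the p-values may be too small. The fit was also run on simulated data whose noise was drawn from the fit itself, so that run cannot show that the p-values are right here. Pairs of arrays were compared by ratio, called at 2-fold with no test. Python 3.11.15 was used otherwise.

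Members and lists were chosen with earlier results of these data known. Named members had a limma call, a ratio of at least 2-fold, or 1 of the 3 highest mean signals of their family; partner lists gave up to 4 genes with the largest mean diet or strain change. Partner lists were glutathione synthesis and reduction, UDP-glucuronate supply, sulfate supply and sulfatases, efflux pumps, other conjugating enzymes, other hydrolases, regulators and NRF2 targets. Alternatives were quantile normalization, no scaling, floors of 50 and 200, a pseudocount of 50, the mean of probe sets, leaving out probe sets marked as matching several transcripts or listed with several genes, an intensity trend, all genes with no filter on mean signal, 1 factor only, and leaving out each array.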

Additional observations from a re-analysis of the deposited data

Results flagged for a closer look

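For 9 of the members that met the naming rule given above, the effects went opposite ways in the groups set against each other. Each comparison was of single arrays, and none of these differences was tested. Of all 37 measured members, 13 had diet ratios of opposite sign (35.1%, against 44.8% of all units). For strain there were 8 (21.6%, against 34.2%). Outside the rule, Gstm1 had log2 diet ratios of -0.09 in A/J against 0.83 in C57BL/6J. Its strain ratio was 0.84 on low fat against -0.08 on high fat. The diet ratio in A/J minus that in C57BL/6J, on the log2 scale, was -1.32 for Ugt2b38 (-0.28 against 1.04, the latter a bound), -1.02 for Ces2g (-0.28 against 0.74), -0.77 for Ces2e (-0.54 against 0.23) and -0.66 for Ugt2a3 (-0.33 against 0.33). In these 4 members the high-fat signal was lower in A/J and higher in C57BL/6J. The same order at a smaller size was seen for the shared Ugt1a probe set, at -0.27 (-0.10 against 0.17). The opposite order was seen for Sult2b1, at 0.16 (0.02 against -0.14), and Sult1d1, at 0.14 (0.11 against -0.03). The other Sult1d1 probe set was lower with fat in both strains, at 1.25-fold in A/J and 1.09-fold in C57BL/6J. The dimmest Ugt1a probe set was higher with fat in both strains, at 1.30-fold and 1.45-fold. The remaining Ugt1a probe set was 1.04-fold lower in A/J and 1.41-fold higher in C57BL/6J. The strain ratio changed sign between diets for Ces1d, with a difference of -0.97 (-0.11 on high fat, a bound, against 0.86 on low fat), and for Sult1b1, with a difference of -0.26 (-0.16 against 0.09). Without scaling between arrays the high-fat strain ratio of Sult1b1 was 0.12 and the A/J diet ratio of Sult2b1 was -0.03, so that both pairs then had 1 sign.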

How the results depend on the processing

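No paired analysis was possible because each group had 1 array. Leaving out any 1 of the 4 arrays, with 1 factor fitted to the other 3, gave 0 to 0 members called for diet and 0 to 0 for strain, and at most 2 of all units higher and 17 lower with diet, without C57BL/6J high-fat, and 0 for strain. In those fits the log2 diet change ran from -0.62 to 1.08 for Ces2g, from -0.32 to 0.59 for Gsta2 and from -1.41 to 2.18 for Ugt2b38, and the strain change of Ces1d from -0.33 to 1.07. Called changes moved too: diet ran from 0.67 to 2.83 for Ugt2b5 and from 0.89 to 2.95 for Ces1f, and strain from 0.63 to 2.82 for Ugt2b5, from 0.01 to 2.66 for Ces1f, from 0.34 to 1.45 for Ces2a, from 0.83 to 1.57 for Ces2g, from 2.41 to 3.45 for Ugt2b38 and from 0.65 to 0.91 for Gsta2. The diet change of Ces2a, not called, ran from 0.49 to 1.5. The diet change of Gsta2 was also -0.02 at a floor of 50, and that of Ugt2b38 -0.12 at a floor of 200. The 2 members that rose with fat became 0 with 1 factor only, a floor of 200, the mean of probe sets, no filter or no scaling, 1 at a floor of 50 or without probe sets matching several transcripts, and 4 with an intensity trend. Over all units the 30 that rose became 0 with 1 factor only, a floor of 200 or no filter, 9 with the mean of probe sets, 15 with no scaling, 10 at a floor of 50, 15 without probe sets matching several transcripts and 73 with the trend. The 6 members higher in A/J became 1 with 1 factor only, 0 at a floor of 200 or with no filter, 3 at a floor of 50 and 10 with no scaling, while over all units 307 became 72, 0, 166 and 630. At a floor of 200 and with no filter limma called 0 of all units. At an unadjusted limma p under 0.05, 5 and 3 members were then higher on high fat (468 and 523 of all units). On the same terms 1 and 1 were lower (384 and 488 of all units). For strain, 6 and 7 were higher in A/J (779 and 844 of all units) and 2 and 2 lower (601 and 653). Members at least 2-fold higher with fat in A/J went from 2 to 1 without probe sets matching several transcripts (68 to 59 of all units). Members at least 2-fold lower there went from 1 to 0 at a floor of 200 or with the mean of probe sets, and to 2 at a floor of 50. Over all units 89 became 51, 70 and 126 in these settings. In C57BL/6J the 4 higher members became 2 at a floor of 200 and 2 with no scaling, while over all units 84 became 57 and 61. For A/J over C57BL/6J without scaling, 6 became 10 on low fat (252 became 415 of all units) and 2 became 4 on high fat (169 became 402 of all units). On high fat a floor of 50 also gave 1 lower in place of 0 (264 in place of 210 of all units). Other than by construction (fewer arrays, signals at the floor, probe sets left out), the cause was not tested. Signals near the floor limit Gsta2, Ces1d, Ugt2b5 and Ugt2b38.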

Other observations

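Some members under the limit on mean signal had readings above the floor on A/J arrays alone. Ces1e had signals of 106, 134, 8.61 and 67.9, with the A/J pair first and low-fat before high-fat, and Ces1g, a lipid-hydrolysing carboxylesterase, had 141, 97.8, 45.5 and 57.3. Both lie in the row of Ces1 genes with Ces1d and Ces1f. The probe set shared by Ces3a and Ces3b was below the floor on all 4 arrays, at 46.2, 50.7, 6.15 and 6.48. Sult5a1 had 98.4, 97.8, 118 and 85.6, and the oestrogen sulfotransferase Sult1e1, which lies in the row of Ugt2 genes next to Sult1d1, had signals of 3.69 to 8.16.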
